A study of Mus musculus with 12 samples.

Results

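The 12 expression arrays of mouse myocardium were divided into 2 sets chosen by their measured level of Myl7, the regulatory light chain of atrial myosin. The 5 arrays with Myl7 above 6 on the log2 scale are called Myl7-high here: NC replicates 1 and 3 and DM replicates 1, 2 and 4. The other 7 arrays are called Myl7-low: the 4 DM_AngIV replicates, DM replicate 3, and replicates 2 and 4 of NC. Just inside the threshold of 6 stood NC replicate 3 at 7.90, and just outside it stood NC replicate 2 at 4.28. The split was made on measured values, so everything set out across it is a description and carries no test.

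The study holds 3 groups of 4 mice, with 4 arrays each. The labels do not tie each array to a mouse, so p-values measure the spread between these arrays. NC mice received vehicle injections into the peritoneum for 5 days. DM mice received streptozotocin, a toxin of insulin-producing beta cells, on 5 days, and were used when their fasting glucose 2 weeks later reached 16.7 mM. DM_AngIV mice were made diabetic with streptozotocin in the same manner, then received 2.88 mg/kg/day of angiotensin IV, a short fragment of angiotensin II, between the ends of weeks 8 and 24. The labels carry the time 6 months without saying what it was counted from, and neither the strain nor the way the heart was dissected is given in the sources used here. RNA was extracted from whole tissue, so in every result fewer cells of a type and less RNA per cell cannot be told apart.

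Atrial and ventricular muscle cells share most of the contractile apparatus but use different myosin light chains. Atrial cells carry the light chains Myl7 and Myl4, the calcium pump regulator sarcolipin (Sln) and large stores of atrial natriuretic peptide (Nppa). Ventricular cells carry Myl2 and Myl3 and the pump regulator phospholamban (Pln). The atria are thin-walled and adjoin the valves, the great vessels and the epicardial fat, so a piece of myocardium can hold more or less of each.

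Beside Myl7 itself, which the rule fixed, the other 3 atrial contractile genes were higher in all Myl7-high arrays than in any Myl7-low array. Nppa, Dkk3, Ecrg4 and Fmod had differences of a similar size to Mybphl, but their arrays overlapped. Of 19505 genes, 5 had all Myl7-high arrays above all Myl7-low arrays and a group-adjusted difference of at least 1 on the log2 scale, which is 0.0256% of genes. They were Myl7, Myl4, Sln, Mybphl and Cilp. In the other direction 0 genes met the rule, 0% of those measured. The group-adjusted difference is the Myl7 status term of a linear model that also holds the group, and its error is the SE of that term. The NC and DM arrays alone inform it, because no DM_AngIV array was Myl7-high, and the DM share rests on 1 Myl7-low array.

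Myl7 was at 10.08 and 7.90 in the Myl7-high NC replicates 1 and 3, and at 8.86, 9.68 and 8.10 in DM replicates 1, 2 and 4. In the Myl7-low arrays its lowest, median and highest values were 3.53, 3.84 and 4.28. The 2 sets of arrays are far apart because the threshold put them there. The background of an array was taken as the 95th percentile of its 246 reporter control probe sets, which lay between 4.82 and 5.17. Myl7 was above it in 5 of 5 Myl7-high and 0 of 7 Myl7-low arrays, the 1 gene of 19505 with that pattern. Its group-adjusted difference was 4.96 ± 0.53 (SE). Since the Myl7-low arrays give a bound only, Myl7 was at least 15.8-fold higher in the Myl7-high arrays.

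Myl4, the essential light chain of atrial myosin, was at 9.99 and 8.35 in NC replicates 1 and 3 and at 8.95, 9.24 and 7.88 in DM replicates 1, 2 and 4. Its lowest, median and highest values in the Myl7-low arrays were 5.10, 5.66 and 6.02. All 12 values were above background, so this gene was measured on both sides. The difference was 3.16 ± 0.44, and it was 3.26 within NC and 3.03 within DM.

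Sln, which encodes the atrial inhibitor of the sarcoplasmic calcium pump, was at 9.35 and 7.32 in NC replicates 1 and 3 and at 7.65, 8.83 and 7.28 in DM replicates 1, 2 and 4. The Myl7-low arrays lay between 4.83 and 5.34 with a median of 5.09, close to the background. The difference was 2.95 ± 0.50, again alike within NC (3.09) and within DM (2.76).

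Mybphl, a relative of cardiac myosin-binding protein found in atrial muscle, was at 6.29 and 3.86 in NC replicates 1 and 3 and at 4.50, 5.07 and 3.99 in DM replicates 1, 2 and 4. Its lowest, median and highest values in the Myl7-low arrays were 2.35, 2.82 and 3.21. It was above background in 2 of 5 Myl7-high arrays, NC replicate 1 and DM replicate 2, and in 0 of 7 Myl7-low arrays. The difference of 2.07 ± 0.52 is therefore partly one between dim values, and no fold is given.

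**Figure D1:**
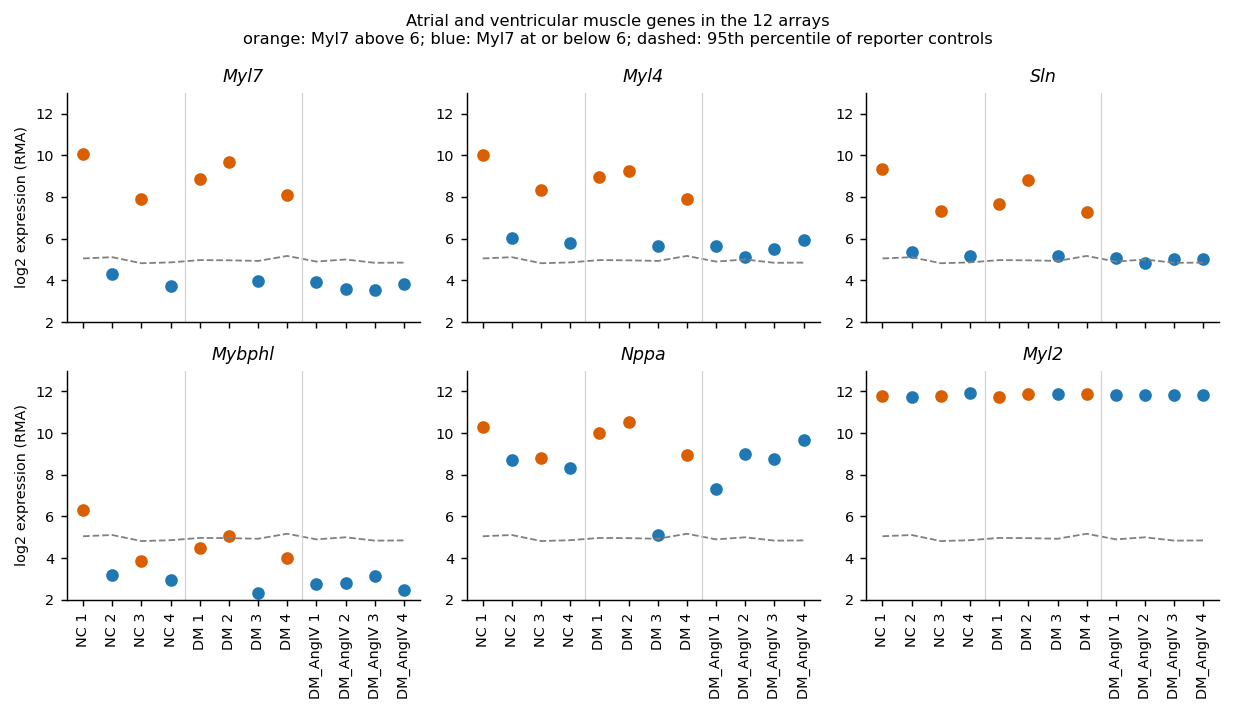
Log2 expression (vertical axis) of 6 muscle genes in each of the 12 arrays (horizontal axis), 1 point per array, orange for Myl7-high and blue for Myl7-low; the dashed line joins the background percentile of each array. Myl7, Myl4, Sln and Mybphl are higher in all orange than in all blue arrays, Nppa overlaps, and Myl2 lies between 11.71 and 11.90 throughout.

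The 5 Myl7-high arrays held different amounts of this signal. Taken on the linear scale as the excess over the mean of the Myl7-low arrays, and with NC replicate 1 set to 100%, Myl7 was at 75.4% in DM replicate 2, 42.3% in DM replicate 1, 24.4% in DM replicate 4 and 21.1% in NC replicate 3. Myl4 stood at 57.2%, 45.9%, 19.1% and 28.4% in the same arrays. For Sln the values were 68.2%, 26.9%, 19.6% and 20.5%. NC replicate 1, DM replicate 2 and DM replicate 1 were thus the 3 highest arrays for each of the 3 genes, in that order, and DM replicate 4 and NC replicate 3 were the lowest and close to each other. The full order of the Myl7 values was repeated by 151 of 19505 genes (0.774%). That count includes dim genes, for which an order means little.

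The sequence upstream of these genes is shown for 3 of the contractile genes that were high in the same arrays, with Nppa beside them as the atrial gene that did not separate the arrays. The RefSeq promoter table (GRCm38.p6) held 6 of the 8 genes looked up, and the entries not matched were Sln and Dkk3. Each window is the 250 bases before the start site, read 5′ to 3′ on the strand of the gene. Capitals mark matches to the motifs searched on both strands. The core promoter motif was TATAAA, and that of nuclear receptors was AGGTCA. For GATA factors the single form AGATAA was searched, so other forms such as TGATAA are not marked. For T-box factors the motif AGGTGT was searched, and for TEAD factors the motif CATTCC. The CArG box of serum response factor and the MEF2 site were searched by their usual forms.
Myl7, chr11:5898783-5899032, minus strand: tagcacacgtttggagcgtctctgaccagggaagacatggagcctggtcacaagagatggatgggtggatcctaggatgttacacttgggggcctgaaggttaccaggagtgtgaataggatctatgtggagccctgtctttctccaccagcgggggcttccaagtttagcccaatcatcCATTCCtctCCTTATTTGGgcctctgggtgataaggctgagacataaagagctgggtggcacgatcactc
Mybphl, chr3:108364661-108364910, plus strand: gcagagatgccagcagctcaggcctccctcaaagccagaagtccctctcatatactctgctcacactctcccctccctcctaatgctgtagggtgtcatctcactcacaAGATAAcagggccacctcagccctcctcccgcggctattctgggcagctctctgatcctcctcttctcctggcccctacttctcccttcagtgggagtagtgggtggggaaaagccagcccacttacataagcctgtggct
Myl4, chr11:104550413-104550662, plus strand: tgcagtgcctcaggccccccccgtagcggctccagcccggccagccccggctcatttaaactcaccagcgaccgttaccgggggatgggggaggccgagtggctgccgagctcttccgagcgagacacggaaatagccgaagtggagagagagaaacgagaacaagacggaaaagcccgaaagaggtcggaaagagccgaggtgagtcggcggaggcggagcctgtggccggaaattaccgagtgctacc
Nppa, chr4:148000472-148000721, plus strand: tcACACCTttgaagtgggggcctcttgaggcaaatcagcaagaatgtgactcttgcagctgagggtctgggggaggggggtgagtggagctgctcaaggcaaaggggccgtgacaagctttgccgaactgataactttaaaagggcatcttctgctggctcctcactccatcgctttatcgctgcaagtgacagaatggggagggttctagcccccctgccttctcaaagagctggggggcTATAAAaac

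Positions count back from -1 at the base before the start. In the Myl7 window CATTCC lay at -70 to -65 and a CArG box at -61 to -52, with no overlap between them. Of all 32851 windows of this length, 1.47% held a CArG box and 12.6% held CATTCC. The Mybphl window held AGATAA at -141 to -136, as 9.99% of windows did. The Myl4 window held 0 matches. The Nppa window held TATAAA at -9 to -4, found in 12.4% of windows, and AGGTGT on the opposite strand at -248 to -243, found in 11.8%. AGGTCA, present in 14% of windows, and the MEF2 site, present in 2.92%, had no match in these 4 windows. No motif in the form searched was shared by all 4, and a match in the letters is a description only.

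The secreted proteins of the atrium did not follow the contractile genes as a set. Nppa, the hormone that lowers blood volume, was at 10.29 and 8.79 in the Myl7-high NC replicates and between 8.93 and 10.51 in the 3 Myl7-high DM replicates. Its lowest, median and highest values in the Myl7-low arrays were 5.12, 8.70 and 9.65. Those ranges overlap, and the lowest value belonged to DM replicate 3. The group-adjusted difference was 2.60 ± 0.89, made up of 1.03 within NC and 4.70 within DM, and without DM replicate 3 it was 1.03.

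Dkk3, a secreted glycoprotein of the Dickkopf family, was at 7.05 and 4.96 in NC replicates 1 and 3 and at 5.71, 6.30 and 4.58 in DM replicates 1, 2 and 4. The Myl7-low arrays ran from 3.70 to 5.06 with a median of 3.95. The overlap came from DM_AngIV replicate 3, at 5.06, while within NC and within DM the 2 kinds of array stood apart. The difference was 1.89 ± 0.59.

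The other 4 members of the secretory list differed less. Hamp, the iron hormone hepcidin, had a difference of 0.44 ± 0.30, and Pam, which amidates peptides in atrial granules, one of 0.26 ± 0.11. Corin, the protease that matures the Nppa product, had -0.05 ± 0.23. Bmp10, a growth factor of the right atrial wall in adults, lay between 2.28 and 3.18 in all 12 arrays, below background everywhere, with a difference of 0.03 ± 0.20 (0.34 within NC, -0.40 within DM). Over the 6 genes 5 differences were positive and the median was 0.35, against a median of -0.01 and 46.6% positive over all genes.

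Atrial ion channels and transcription factors showed no such difference. Of 10 measured channels and receptors, 5 had a positive difference, 0 reached 0.5 in either direction, and the median was -0.01. Over all genes 46.6% were positive, 0.897% reached 0.5 and 0.344% reached -0.5, so a count of 0 in a short list says little. Kcnj3 and Kcnj5, which form the acetylcholine-gated potassium channel, had differences of -0.19 ± 0.20 and -0.05 ± 0.11. Gja5, the atrial gap junction protein connexin 40, had 0.02 ± 0.16, and was above background in 2 of the 12 arrays, both DM_AngIV. Chrm2, the muscarinic receptor of the vagal response, had -0.11 ± 0.13. Among the 4 measured transcription factors, Nr2f2, which sets atrial identity, had 0.06 ± 0.17, and Tbx5, used in atria and conduction tissue, had 0.08 ± 0.14.

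Of 12 measured genes of the sinus node and conduction system, 0 differed by 0.5 or more, and the median was 0.05. That count too says little, since 0.897% of all genes reached 0.5 and 0.344% reached -0.5. Hcn4, the pacemaker channel, was below background in all arrays (0.09 ± 0.25). Other atrial-enriched genes were split. Stard10, a lipid transfer protein, was at 6.76 and 6.89 in the Myl7-high NC arrays and at 6.38, 6.61 and 6.41 in the Myl7-high DM arrays. The Myl7-low arrays reached 6.37 at most, so the values did not overlap, by a narrow margin, and the difference was 0.56 ± 0.14. Its excess was largest in NC replicate 3, at 127% of that in NC replicate 1, unlike the contractile genes. Fgf12, a regulator of sodium channels, had a difference of 0.74 ± 0.30, and 0.43 without NC replicate 1, with 1 of 12 values above background. Sbk2, a muscle kinase, and Angpt1, a vessel growth factor, had -0.02 ± 0.17 and -0.01 ± 0.40.

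Of the atrial lists, the contractile one alone separated the arrays with every member, and Myl7 among them did so by the rule. The arrays are therefore named by Myl7 and not by tissue.

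**Figure D2:**
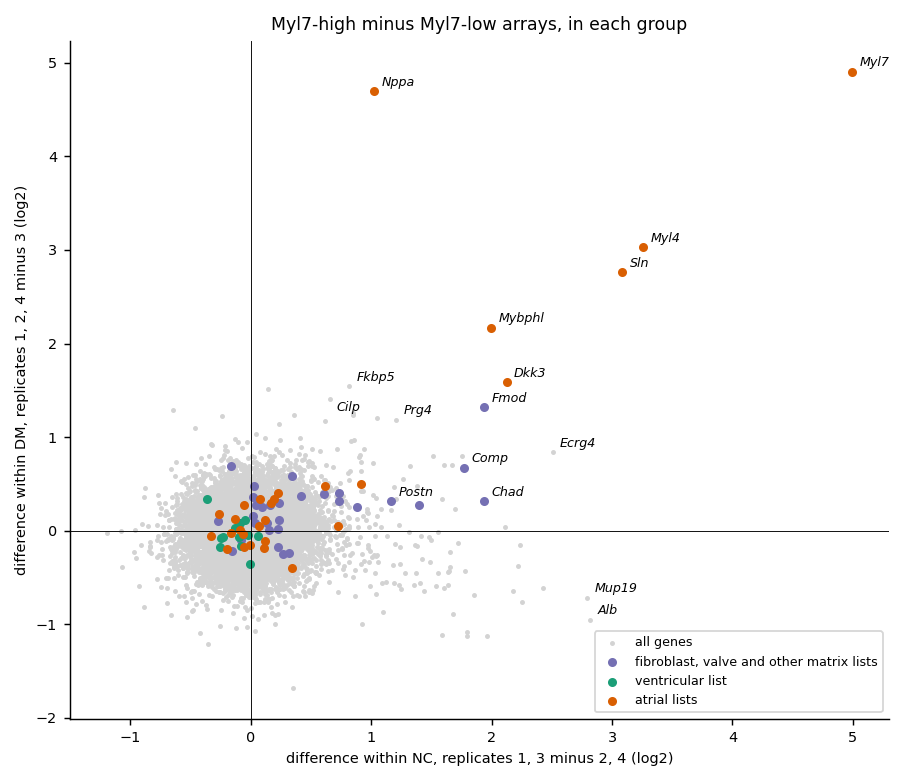
Difference in log2 expression between Myl7-high and Myl7-low arrays within NC (horizontal axis, 2 arrays against 2) and within DM (vertical axis, 3 against 1), 1 point per gene, with lists in colour. Myl7, Myl4, Sln, Mybphl, Dkk3 and Fmod lie high on both axes, Nppa is high mainly within DM (4.70 against 1.03), and Alb and Mup19 are high within NC only.

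Ventricular muscle genes differed little between the 2 kinds of array. Myl2, the ventricular regulatory light chain, was at 11.78 and 11.77 in the Myl7-high NC arrays, at 11.74, 11.86 and 11.87 in the Myl7-high DM arrays, and between 11.71 and 11.90 in the Myl7-low arrays. Its difference was -0.04 ± 0.05. Myl3, Pln and the alpha myosin heavy chain Myh6, which mouse atria and ventricles both use, had differences of -0.06 ± 0.07, -0.08 ± 0.04 and -0.05 ± 0.07. For Pln the value was 0.01 after quantile normalization of the genes. The defining ventricular genes were far above background in every array, as for tissue labelled myocardium.

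Over the 12 ventricular genes, 2 had a positive difference, where 46.6% of all genes had one, and the median was -0.07. In either direction 0 reached 0.5, against 0.897% of all genes at 0.5 and 0.344% at -0.5, so that count says little. Kcnip2, a subunit of the channel for the transient outward potassium current, was at 7.88 and 8.13 in the Myl7-high NC arrays and at 8.11, 8.02 and 8.11 in the Myl7-high DM arrays. The Myl7-low arrays ran from 8.13 to 8.44, and the difference was -0.16 ± 0.09, the 1 ventricular gene with no overlap, by less than the rounding of the values. Irx4 and Hey2, transcription factors of ventricular identity, had -0.22 ± 0.15 and -0.17 ± 0.23. Myh7, the slow myosin heavy chain, had 0.39 ± 0.37, and -0.17 without the group term. The summed picture is small: the mean level of the ventricular list was 7.64 to 7.79 in the Myl7-high arrays and 7.79 to 7.89 in the Myl7-low arrays, lowest in NC replicate 1. These levels are not adjusted for group. The DM_AngIV arrays were at 7.86 to 7.89, and the Myl7-low NC replicates 2 and 4 and DM replicate 3 at 7.79, 7.81 and 7.80.

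Genes of the shared muscle programme were near the median of all genes. The median difference was -0.05 over 18 general cardiomyocyte genes, -0.01 over 18 genes of fatty acid oxidation and -0.04 over 19 of the respiratory chain. In these lists 0 genes were at 0.5 or beyond, against 0.897% of all genes at 0.5 and 0.344% at -0.5.

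**Figure D3:**
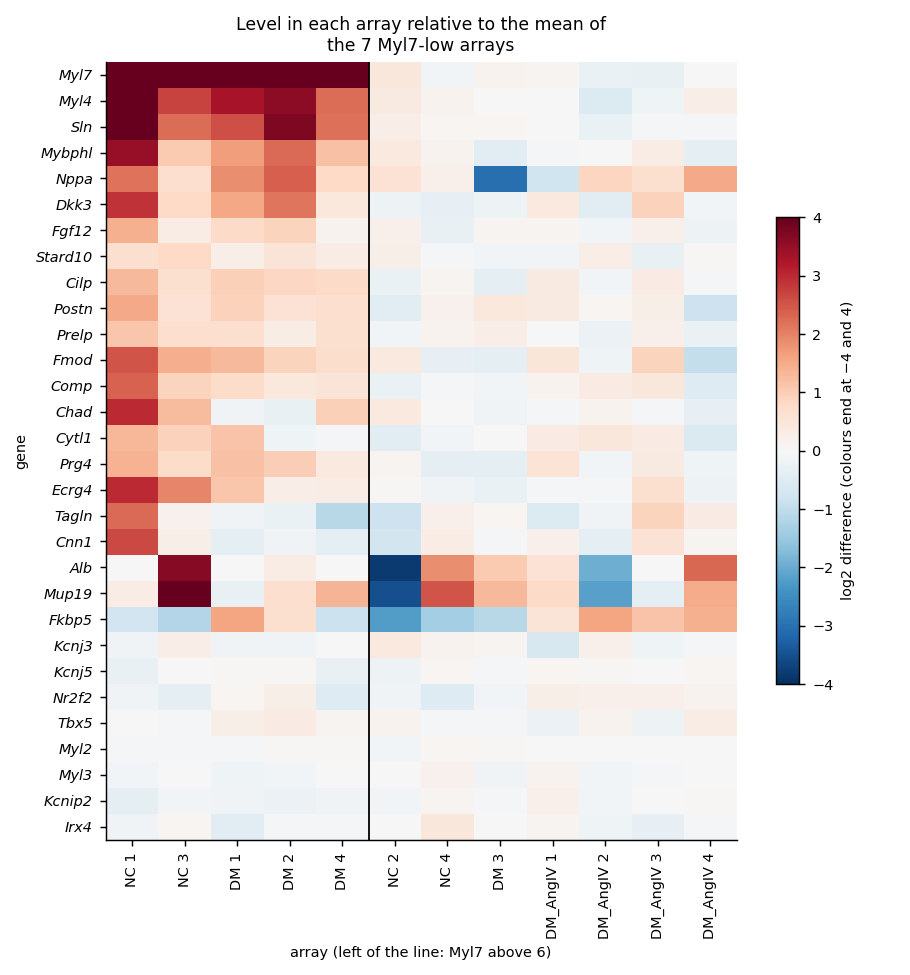
Log2 level of 30 genes (vertical axis) in each array (horizontal axis, Myl7-high arrays left of the line), relative to the mean of the 7 Myl7-low arrays; red is higher, blue lower. The contractile genes are red in all 5 Myl7-high arrays, matrix genes more faintly so, smooth muscle genes mainly in NC replicate 1, liver genes mainly in NC replicate 3, and the channels, transcription factors and ventricular genes are pale throughout.

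Matrix genes of the kind made by valves and cartilage had mostly positive differences, but 1 of 12 separated the arrays. Their mean level was highest in NC replicate 1. In DM replicate 2, second highest for Myl7, it was 4.61, below DM_AngIV replicates 2 and 3 at 4.66 and 4.75. Of 12 measured, 10 had a positive difference, 6 reached 0.5 and 0 reached -0.5, where over all genes 0.897% reached 0.5 and 0.344% reached -0.5. The median was 0.48. Fmod, fibromodulin, which binds collagen fibrils, was at 5.83 and 4.77 in NC replicates 1 and 3, at 4.63, 4.21 and 4.02 in DM replicates 1, 2 and 4, and between 2.38 and 4.21 in the Myl7-low arrays. Its difference was 1.67 ± 0.47, with 1 of 12 values above background.

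Comp, the cartilage oligomeric matrix protein, was at 6.70 and 5.21 in NC replicates 1 and 3 and at 5.06, 4.77 and 4.85 in DM replicates 1, 2 and 4. The Myl7-low arrays ran from 3.82 to 4.80, all below background. Comp was above background in 3 of the 5 Myl7-high arrays. Its values in DM replicates 2 and 4 were below it, so no fold is given. Chad, chondroadherin, a cell-binding protein of cartilage, was at 6.08 in NC replicate 1, but at 2.79 to 4.35, below background, in the other Myl7-high arrays, with a difference of 1.24 ± 0.52. Cytl1, a secreted protein of chondrocytes, had 0.91 ± 0.41, and Omd, osteomodulin, below background in all arrays, had 0.51 ± 0.24.

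Prelp, a proteoglycan that anchors matrix to basement membranes, did not overlap. It was at 7.09 and 6.66 in NC replicates 1 and 3, at 6.65, 6.26 and 6.60 in DM replicates 1, 2 and 4, and between 5.72 and 6.25 in the Myl7-low arrays. The difference was 0.61 ± 0.19, with 0.89 within NC and 0.25 within DM. Sox9, the cartilage and valve transcription factor, had -0.18 ± 0.19.

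Cilp, the cartilage intermediate layer protein, which stood in no list, was the 1 gene beyond the contractile list to meet the full rule. It was at 5.15 and 4.50 in NC replicates 1 and 3 and at 4.82, 4.68 and 4.63 in DM replicates 1, 2 and 4. Its lowest, median and highest values in the Myl7-low arrays were 3.51, 3.78 and 4.22. The difference was 1.11 ± 0.19, but 1 of 12 values, in NC replicate 1, was above background.

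Of 18 fibroblast and matrix genes 17 had a positive difference, where 46.6% of all genes had one. A difference of 0.5 was reached by 3, as by 0.897% of all genes, and the median was 0.16. Postn, periostin, a matrix protein of activated fibroblasts and valves, was at 7.76 and 6.80 in NC replicates 1 and 3 and at 7.16, 6.81 and 6.89 in DM replicates 1, 2 and 4. The Myl7-low arrays ran from 5.39 to 6.64 without overlap. The difference was 0.80 ± 0.37, and 0.49 without NC replicate 1. Lum, lumican, had 0.59 ± 0.23 and Fn1, fibronectin, 0.55 ± 0.22. The main fibrillar collagens were closer to 0, with 0.26 ± 0.17 for Col1a1 and 0.08 ± 0.27 for Col3a1.

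Array by array, the mean level of the fibroblast list was 6.98 in NC replicate 1 and 6.50 to 6.85 in the other Myl7-high arrays, against 6.11 to 6.63 in the Myl7-low arrays. That of the valve and cartilage list was 5.51 in NC replicate 1, 4.61 to 4.95 in the other Myl7-high arrays, and 4.24 to 4.75 in the Myl7-low arrays. Both were highest in NC replicate 1, the array with the most Myl7. Most Fmod and Comp values in the other arrays were below background, so their order over the arrays is not read.

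**Figure D4:**
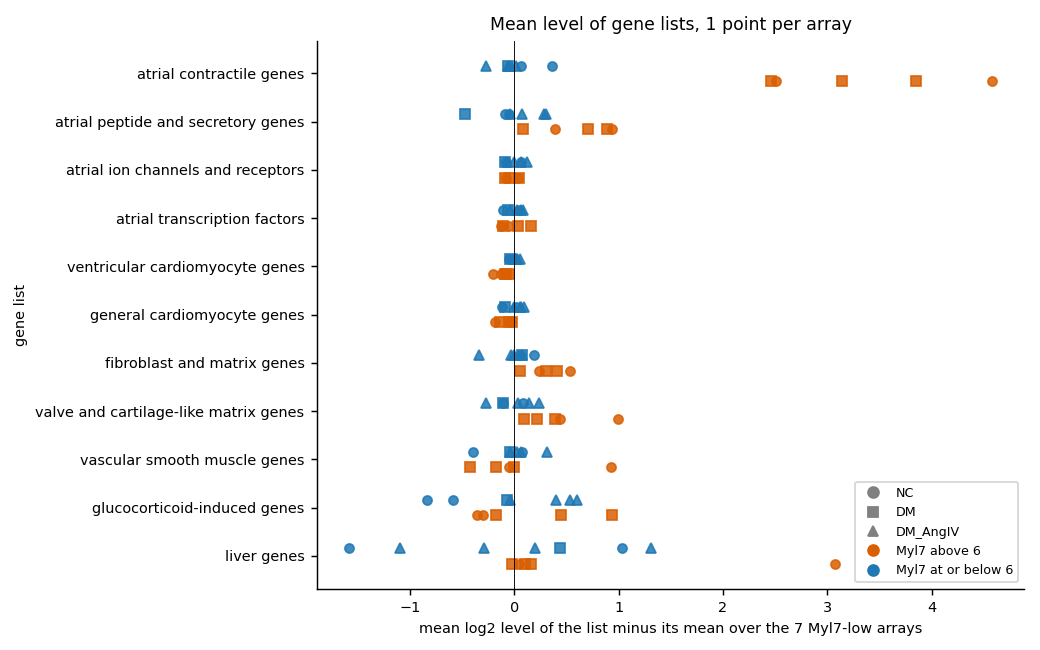
Mean log2 level of 11 gene lists (vertical axis) in each array, as the difference from the mean of the 7 Myl7-low arrays (horizontal axis); orange is Myl7-high, blue Myl7-low, and the symbol gives the group. The atrial contractile list separates the colours by more than 2, but it holds Myl7, which set the colours. The 2 matrix lists overlap partly, and the channel, transcription factor and muscle lists lie close to 0.

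Other genes separated the arrays only within the groups. With the DM_AngIV arrays set aside, 580 genes (2.97%) had all Myl7-high arrays above all Myl7-low arrays both within NC and within DM. On the lower side there were more, 825 (4.23%). With so few arrays per group, many genes separate them by order alone. Neither count is therefore read as a result about the split. With a difference of at least 1, 19 genes (0.0974%) remained, and 5 of these are the genes of the full rule. The others included Nppa, Dkk3, Fmod and Comp, described above. Further members of the 19, named here after their values were seen, were Prg4, Ecrg4, Timp4 and Casq1.

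Prg4, lubricin, a lubricating proteoglycan of joints, had a difference of 1.20 ± 0.27, with values of 6.17 to 7.18 in the Myl7-high and 5.42 to 6.34 in the Myl7-low arrays. Ecrg4, the precursor of the secreted peptide augurin, had 1.79 ± 0.43, a difference mostly between dim values. It was at 5.96 and 4.93 in NC replicates 1 and 3, but at 3.25 to 4.10 in the Myl7-high DM arrays, and 2 of 12 values, those of the NC arrays, were above background. Casq1, the calcium store protein of skeletal muscle, had 1.21 ± 0.25, with the same 2 NC arrays highest at 5.43 and 5.01 and the other 10 below background. Timp4, an inhibitor of matrix metalloproteinases, had 1.03 ± 0.26, but the DM_AngIV arrays, which carried no Myl7 signal, were at 6.57 to 7.35, in the range of the Myl7-high arrays at 6.33 to 7.26.

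Without the size limit, 28 genes (0.144%) were higher and 33 (0.169%) lower with no overlap of the 12 arrays. Of these, 14 and 18 were below background on every array. Among this many genes some separate the arrays by order alone, so neither count is read as a result about the split. Beyond those named above, Cfb, complement factor B, was higher by 0.66 ± 0.19. On the lower side, where differences ran from -0.61 to -0.14, were Srpk1, a kinase of splicing factors, at -0.34 ± 0.07, and C2cd2l, a lipid transfer protein, at -0.46 ± 0.10. Of all genes, 28 (0.144%) had a difference of at least 1 and 0 (0%) one of -1 or less, so differences of that size were all on the side of the Myl7-high arrays.

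Genes of other tissues that can come with a dissected heart moved with single arrays. The mean level of 12 vascular smooth muscle genes was 7.07 in NC replicate 1 and 5.72 to 6.46 in the other 11 arrays. Tagln, transgelin, was at 8.62 in NC replicate 1 against 5.25 to 7.24 elsewhere, and Cnn1, calponin, was at 6.67 against 3.28 to 4.60. Within NC the median difference of this list was 0.56 and within DM it was -0.17, so smooth muscle genes did not accompany Myl7 in both groups. Their part in the matrix differences, which were also largest in NC replicate 1, was not tested.

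Liver genes, a list chosen after values were seen, had a mean level of 8.63 in NC replicate 3 and 3.97 to 6.86 elsewhere. Alb, serum albumin, was at 11.02 in NC replicate 3 and at 3.53 in NC replicate 2. Of its 15 genes, 7 were among the 28 genes with a difference of at least 1. The median difference of the list was 1.70 within NC and -0.41 within DM. Alb, Ahsg, Mup19 and Hp, all products of liver, were among the 28, with differences of 1.20 ± 1.65, 1.22 ± 0.87, 1.29 ± 1.70 and 1.25 ± 0.42. For Alb the difference was 2.82 within NC and -0.95 within DM, so it followed 1 array and not the split.

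Most epicardial, neuronal and mast cell genes were below background. Of 12 epicardial and mesothelial genes 3 were above background on any array, and the median difference was -0.02. Upk3b, a mesothelial marker, was below background in all arrays (0.49 ± 0.36). Of 14 genes of cardiac ganglia 3 were above background on any array (median 0.00), and of 7 mast cell genes 1 was (median 0.02). Among adipocyte genes, Adipoq was below background in all arrays, and Car3, a carbonic anhydrase of fat and muscle, had 1.35 ± 0.82 with its highest value, 7.07, in NC replicate 3. Leaving out NC replicate 2 gave a Car3 difference of 0.44, and leaving out NC replicate 4 gave 2.06. Sftpc, the lung surfactant marker, was at 1.76 to 2.62.

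Glucocorticoid-induced genes, none of which separated the arrays, had positive differences in 10 of 10 members, where 46.6% of all genes had one. Of the 10, 5 reached 0.5, as 0.897% of all genes did, and the median was 0.43. The mean level of the list was 8.62, 8.13 and 7.51 in the Myl7-high DM replicates 1, 2 and 4. In the Myl7-low DM replicate 3 it was 7.62, above DM replicate 4. Fkbp5, a chaperone of the glucocorticoid receptor, had 1.13 ± 0.56, but its 4 DM_AngIV values of 7.64 to 8.69 lay above those of the Myl7-high NC arrays, at 6.35 and 5.93, and without the group term the difference was -0.12. Among 12 immediate early genes, 0 separated the arrays, 4 differences were positive and the median was -0.19, with -0.71 ± 0.33 for Egr1 and -0.59 ± 0.46 for Nr4a1, both early transcription factors, and -0.15 for Egr1 without the group term. Leaving out 1 array gave -0.42 for Egr1 (DM replicate 3) and -0.31 for Nr4a1 (NC replicate 2). These lists move with the group too, and their relation to the atrial signal was not tested.

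The split is uneven over the groups, with 2 of 4 NC, 3 of 4 DM and 0 of 4 DM_AngIV arrays Myl7-high, so each labelled comparison was fitted in limma without and with Myl7 status as a term. In DM_AngIV against DM, without the term, the log2 fold change was -3.93 for Myl7, -2.40 for Myl4, -2.24 for Sln and -1.19 for Mybphl. With the term these were -0.21, -0.03, -0.03 and 0.36. Without the term none of the 4 passed (limma adjusted p 0.596, 0.605, 0.617 and 0.682). With it Myl4, Sln and Mybphl did not pass either (limma adjusted p 0.995, 0.995 and 0.896). Myl7 defines the term, so its test in that fit is not read.

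For any gene, the shift between these fits follows from its difference across the split, since DM and DM_AngIV hold unequal numbers of Myl7-high arrays. The values are therefore no further support for the differences given above. Postn had -0.69 without and -0.09 with the term, Prelp -0.54 and -0.08, and Cilp -0.43 and 0.41, none past the threshold (limma adjusted p of at least 0.624 in both fits). Nppa had 0.04 without the term and 1.99 ± 0.80 with it (limma adjusted p = 0.645), a value that rests on DM replicate 3. Over all genes, 0 passed at a limma adjusted p below 0.05 in either fit (0%), with 1459 genes (7.48%) at an unadjusted p below 0.05 without and 1413 (7.24%) with the term. With the term and with array weights estimated by limma, 61 genes passed, 31 of them higher in DM_AngIV.

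**Figure D5:**
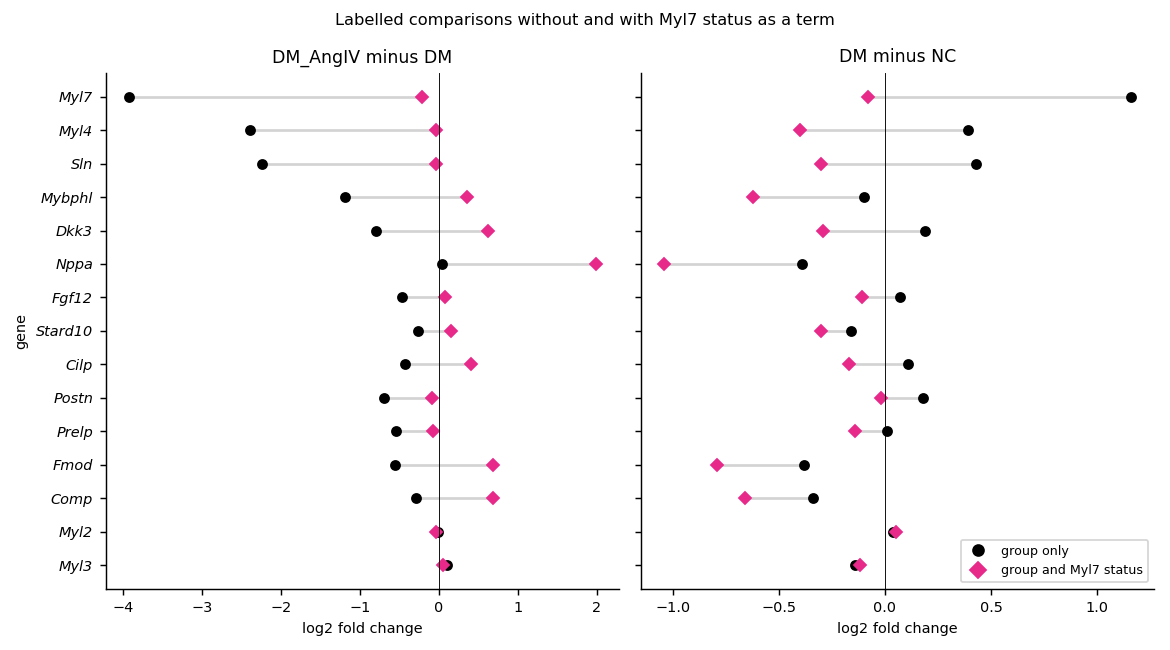
Log2 fold changes (horizontal axis) of 15 genes (vertical axis) in DM_AngIV minus DM (left) and DM minus NC (right), from the fit on group only (black circles) and the fit on group and Myl7 status (pink diamonds). Myl7, Myl4 and Sln move from between -3.93 and -2.24 to near 0 on the left, Nppa moves away from 0, and Myl2 and Myl3 stay in place.

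In DM against NC, 3 genes passed in each fit (0.0154%), and they were the same 3 in both: Arntl, the circadian activator BMAL1, Abat, which breaks down GABA, and Epha4, an ephrin receptor. All fell. With the term the log2 fold changes were -1.37 ± 0.15, -1.81 ± 0.23 and -1.07 ± 0.14 (SE, limma adjusted p 0.00323, 0.0113 and 0.0132). Without it they were -1.38, -1.86 and -1.03, so the 3 hardly moved. Arntl lay at 5.72 and 5.89 in the Myl7-high and 5.94 and 5.57 in the Myl7-low NC arrays. Among the DM arrays it was at 4.44, 4.21 and 4.44 in the Myl7-high and 4.51 in the Myl7-low one, so it did not follow Myl7 in either group. Without NC replicate 3, 0 genes passed with the term (smallest limma adjusted p = 0.0505), without DM replicate 1, 2 or 3 there was 1 each, and without NC replicate 2 there were 6. Without DM replicate 4 there were 28 with the term and 30 without it. In the fit with the term, DM replicate 3 is the 1 Myl7-low DM array, but Myl7-high arrays of both groups inform the comparison too. With the 7 Myl7-low arrays alone, DM replicate 3 is the lone DM array, so no count is given for that fit.

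In DM_AngIV against NC, 198 genes (1.02%) passed without the term and 136 (0.697%) with it. The fits shared 108 genes, 54.5% of the first set and 79.4% of the second. With the term, the 6 with the smallest p were Arntl at -2.09 ± 0.16 (limma adjusted p = 4.46e-05), the zinc finger factor Zbtb16 at 2.47 ± 0.28 (0.00245), the magnesium transporter Slc41a3 at -1.59 ± 0.18 (0.00245), the clock gene Per2 at 1.19 ± 0.15 (0.0041), the tetraspanin Tspan4 at 1.25 ± 0.16 (0.0041) and the receptor Mrgprh at -1.37 ± 0.17 (0.0041). All 6 also passed without it. Timp4, named after its values were seen, passed with the term alone, at 1.55 ± 0.23 (limma adjusted p = 0.00932) against 1.03 (0.126) without. It was picked for its difference across the split, and that difference also moves its value between the fits. The pass of Timp4 is therefore not read as a result. Without NC replicate 2, 1 of the 2 Myl7-low NC arrays, 2 genes passed with the term, and without DM replicate 4, 260 did.

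Of the 61 genes that separated the Myl7-high from the Myl7-low arrays in either direction, 0 passed in any labelled comparison, with or without the term. At the shares of all genes that passed, from 0% to 1.02%, a count of 0 among 61 is no result about these genes.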

How the data were processed

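Each array has 1 column of log2 values in the table deposited by the authors, who used RMA (robust multi-array average) per the submitters' processing notes, from 6 µg of total RNA per array per the labels. RMA sets the arrays to a common distribution, so a rise in some genes is measured relative to the others. Of 29129 probe sets, 19572 had 1 gene symbol, 0 several and 2634 gene probe sets none; 6923 were others or controls. All 19572 matched the RefSeq table by gene ID. For 55 symbols with several probe sets the one with the highest mean was used, leaving 19505 genes; Myl7 has 1. Precision is limited by the number of arrays, which have no read depth. Between 38.9% and 45.6% of genes were above background, and array pairs correlated across genes with r between 0.977 and 0.990.

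A fold against arrays all below background is a lower bound, with the dim values of those arrays set to the percentile. Labelled comparisons were fitted over all 12 arrays with limma 3.58.1 (lmFit, eBayes; R 4.3.3) and tested two-sided; a gene passed below 0.05 after Benjamini-Hochberg adjustment across all genes. Members, lists and tests were chosen with earlier results of these data known, and the 29 gene lists were not tested as sets. Named genes were a set of muscle and marker genes, the 14 largest positive and 10 largest negative differences without overlap, the 2 largest of each list from 0.5, the genes in the order of Myl7, and up to 6 called genes per comparison; the text gives part of them, and other list members, chosen after values were seen, to fill out a count. Scripts were tested on simulated data. Figures were drawn with matplotlib 3.10.9.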

Additional observations from a re-analysis of the deposited data

Results flagged for a closer look

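Of 195 sets of 4 arrays (65 genes in 3 groups), 7 held a value far from the other 3 by Dixon's criterion, where chance gives about 1 in 20. Cilp in DM replicate 3 was 3.51, against 4.63 to 4.82 in the other DM arrays. Myl2 was 11.74 in DM replicate 1 (others 11.86 to 11.88) and 11.85 in DM_AngIV replicate 2 (others 11.81 to 11.82). Myh6 in DM replicate 2 was 11.66, against 11.85 to 11.88. C2cd2l in DM replicate 3 was 5.53, against 5.35 in each of the others. Car3 in DM_AngIV replicate 2 was 3.07, against 4.35 to 4.51. Elovl3, a fatty acid elongase of brown fat, was 5.11 in NC replicate 3, against 3.04 to 3.28.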

How the results depend on the processing

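The 5 Myl7-high arrays were the same number with the background percentile or Sln above 6 as the rule, and 6 with Myl4 above 6. The 5 genes higher in Myl7-high arrays became 37 within NC only, 20 within DM only, 10 at a difference of 0.5, 3 among genes above the median, and 19 with separation asked within NC and DM only, which was added after seeing the data. The 0 lower genes became 3, 12 and 2 under the first 3 of these. Leaving out 1 array gave 4 to 9 higher and 0 lower genes: without NC replicate 1 Cilp was lost, without DM replicate 4 there were 8 (with Abi3bp, Nox4 and Prg4), and without DM_AngIV replicate 3 there were 9 (with Comp, Dkk3, Ecrg4 and Fmod). Of 912 recomputed differences of 48 genes, 24 moved by more than the spread and 0 called values reversed.

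Without the status term, DM against NC gave 20 genes among those above the median, 17 at an adjusted p below 0.1, and 2 to 30 with 1 array left out; DM_AngIV against DM gave 0 to 5; DM_AngIV against NC gave 504, 509 and 81 to 302. With it, DM against NC gave 5, 5 and 0 to 28. DM_AngIV against DM gave 0 to 0, but 61 with array weights. DM_AngIV against NC gave 413, 371, 2 to 260, and 50 in the 7 Myl7-low arrays. Some of those fits hold fewer arrays or genes, and the causes of the changed counts were not tested.

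Replicate numbers were not used to pair the arrays in the main fits. After the mean of each group was taken from every gene, 1 of 12 same-numbered pairs of arrays had a correlation over 0.1. With the replicate block, DM_AngIV against NC gave 115 genes and 25 with the status term, and the 5 higher genes became 4.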
